A study of Homo sapiens with 12 samples.

Results

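Transcripts of 9 genes of the fibroblast growth factor (FGF) and hepatocyte growth factor (HGF) systems were followed in the human Müller glia line MIO-M1 after knockdown of either p38-alpha or the JNK pair JNK1 and JNK2. The genes were chosen by symbol and are the ligands FGF1, FGF2 and FGF5, the receptors FGFR1, FGFR2, FGFR3 and FGFR4, the receptor MET and its ligand HGF. All 9 were present in both deposited tables, among 17992 genes listed in either table and 16752 in both. In one experiment, cells received small interfering RNA (siRNA) to MAPK14, which encodes p38-alpha, or a control siRNA. In the other, they received siRNA to both JNK genes, MAPK8 plus MAPK9 (siMAPK8_9), or that experiment's own control siRNA. Each of the 4 groups held 3 libraries taken at day 3. All cells were of the single line MIO-M1 and carried the genotype label WT. The labels give the 2 experiments different batches, and nothing in them tells separate cultures from repeat libraries of one culture, so each p-value reflects the spread among the libraries at hand. The experiments were designed to find signalling changes downstream of each knockdown.

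FGFs bind heparan sulfate on the cell surface and activate FGF receptors, which signal through the adaptor FRS2, the RAS-ERK cascade, PI3 kinase and phospholipase C gamma. HGF is secreted as an inactive precursor, is cut by serine proteases and activates MET, which uses many of the same adaptors. In the retina, FGF2 is known as a survival factor for photoreceptors and, in the chick, as a factor that drives Müller glia to proliferate.

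MET and FGF5 were the 2 members that were lower in both knockdowns in every setting tried, and the sequences just upstream of their starts are shown for that reason. Both are RefSeq sequences of GRCh38.p14, the 250 bases before the annotated gene start on the + strand, at chr7:116671946-116672195 for MET and chr4:80266338-80266587 for FGF5. Capitals mark each match to the GC box, a site of SP-family factors, searched as GGGCGG on both strands.
MET: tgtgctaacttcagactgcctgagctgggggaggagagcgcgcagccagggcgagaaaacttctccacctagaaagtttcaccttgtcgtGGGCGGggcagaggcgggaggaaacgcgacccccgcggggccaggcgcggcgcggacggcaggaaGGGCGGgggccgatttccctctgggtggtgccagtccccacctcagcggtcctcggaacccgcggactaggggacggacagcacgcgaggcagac
FGF5: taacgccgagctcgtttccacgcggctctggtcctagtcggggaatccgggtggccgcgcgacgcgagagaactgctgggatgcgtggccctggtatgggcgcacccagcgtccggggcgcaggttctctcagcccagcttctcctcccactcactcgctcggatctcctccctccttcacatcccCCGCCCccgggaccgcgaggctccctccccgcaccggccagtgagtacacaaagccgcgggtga
The MET window held 2 GC boxes and the FGF5 window 1, and 42.5% of 34943 promoter windows of the same length held at least 1. Neither window held the AP-1 site TGANTCA, which 6.59% of the windows held, or the cyclic-AMP response element TGACGTCA, which 1.63% held. The searched motifs do not overlap one another in these windows, and a match or its absence is a property of these letters only.

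The libraries differed in ways that touch every member. Controls were the deepest, at 31040067 to 31510571 counts, with 14516406 to 19463837 for siMAPK14 and 9246294 to 20136463 for siMAPK8_9. Mitochondrially encoded genes took 1.56% to 2.03% of the counts in controls, 32.1% to 45.0% after siMAPK14 and 8.93% to 36.9% after siMAPK8_9. Genes with long transcripts were lower in both knockdowns. With genes divided by transcript length into 5 groups of equal size, from the shortest group to the longest the median log2 fold change went from 0.72 to -0.57 in siMAPK14 and from 0.96 to -0.78 in siMAPK8_9, and all 9 members lie in the 3 groups of longer transcripts. The library siMAPK8_9 replicate 2 stood apart, with 8.93% mitochondrial counts against 36.9% and 35.0% in its group. Summed over 16 epithelial markers, it held 1606 CPM (counts scaled to a common library size by TMM), against 29.1 to 72.4 CPM elsewhere. All 16 markers had counts in it, as they did in control replicate 1 of its experiment. Calls and counts of members and pathway lists that change without it are given both ways. Of 16 Müller glia markers 15 were listed, with VIM, GLUL, SOX9 and SLC1A3 present in every library, while RLBP1, a defining marker, had 0 counts in all 6 controls. AQP4 was among the 16 markers, and its level is not reported here. The targets fell, MAPK14 from 76.7 ± 1.95 to 33.5 ± 3.53 CPM, MAPK8 from 27.9 ± 0.124 to 10.1 ± 1.22 and MAPK9 from 64.4 ± 0.941 to 23.1 ± 4.83 (SD, n = 3). MAPK14 was also lower after siMAPK8_9, at 56.2 ± 13.2 CPM against 85.0 ± 1.88 in its controls. After siMAPK14, MAPK8 stood at 28.0 ± 1.64 CPM against 28.3 ± 1.77, and MAPK9 at 63.3 ± 6.1 against 66.5 ± 0.593.

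Before knockdown the system was carried by MET, FGFR1 and FGF2. Per kilobase of effective transcript length, the level of MET in the control libraries was 55.7 ± 0.137 CPM per kilobase in the siMAPK14 experiment and 73.8 ± 0.790 in the siMAPK8_9 experiment (SD, n = 3). FGFR1 followed at 24.6 ± 0.545 and 26.9 ± 1.11, FGF2 at 7.24 ± 0.157 and 10.3 ± 0.770, and FGF5 at 3.84 ± 0.407 and 3.61 ± 0.142. These 4 levels did not overlap between genes in either control set. FGF1 was at 1.26 ± 0.109 and 1.33 ± 0.0517 CPM per kilobase, FGFR2 at 0.317 ± 0.0306 and 1.28 ± 0.127, and FGFR3 at 0.159 ± 0.0564 and 0.392 ± 0.0542. FGF1 and FGFR2 did not differ beyond their spread in the siMAPK8_9 control set. FGFR4, at 0.0713 ± 0.0267 and 0.0454 ± 0.00012, and HGF, at 0.00887 ± 0.00444 and 0.0181 ± 0.00451, rested on 1 to 11 counts per control library. FGFR1 made up 92.1% to 99.6% of the summed FGF receptor level per kilobase in all 12 libraries, and FGF2 52.2% to 68.4% of the sum of the 3 ligands.

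In each knockdown 4 members were lower and 0 were higher. MET, FGFR1, FGF2 and FGF5, the 4 most abundant, were lower after siMAPK14 and after siMAPK8_9 by edgeR's quasi-likelihood test at a Benjamini-Hochberg adjusted p under 0.05. Of the 9 members, 7 passed the filter on low counts in each comparison, and FGFR4 and HGF did not. Over all genes tested, 59.9% changed after siMAPK14, 30.5% lower and 29.4% higher, and 52.9% changed after siMAPK8_9, 26.1% lower and 26.8% higher. For those 4 members the libraries did not overlap either; over all genes tested, 35.7% were lower and 32.9% higher without overlap after siMAPK14, and 36.3% and 31.6% after siMAPK8_9. The median log2 fold change of the 7 tested members was -0.75 after siMAPK14 and -1.21 after siMAPK8_9, against -0.02 and -0.05 over all genes tested. Fewer cells that express a gene and less of its RNA per cell cannot be told apart in these bulk libraries.

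**Figure D1:**
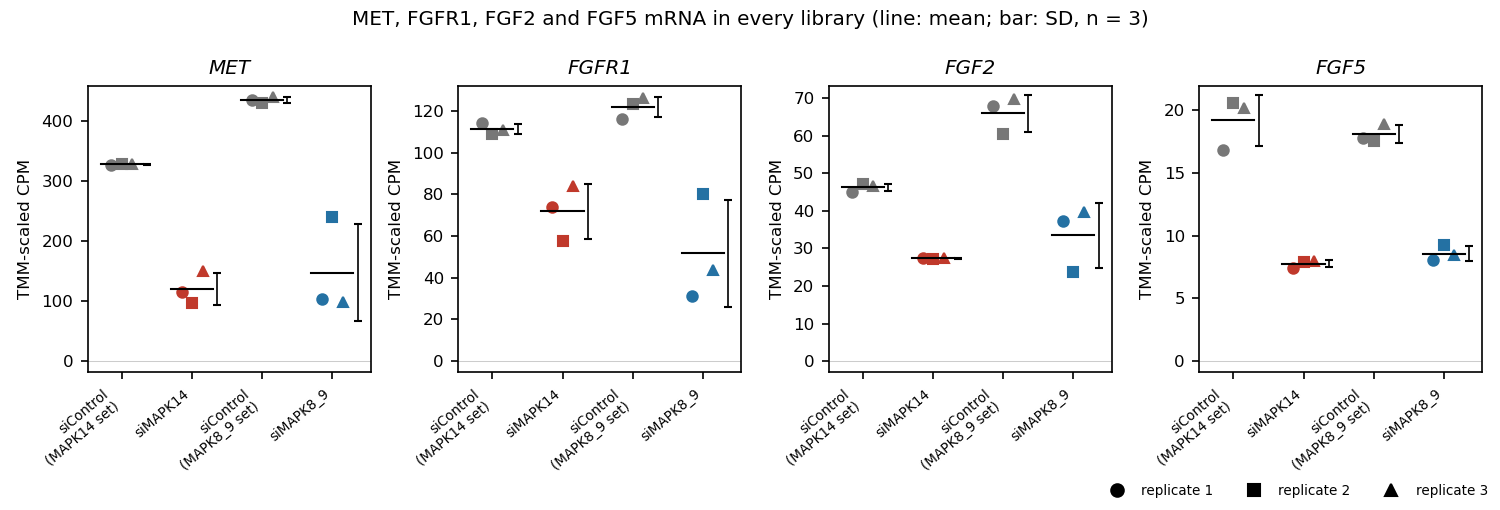
MET, FGFR1, FGF2 and FGF5 in TMM-scaled CPM (linear axes from 0) in each of 12 libraries, with the group mean as a line and the SD as a bar (n = 3). All 6 knockdown libraries lie below all 6 control libraries for each gene, and siMAPK8_9 replicate 2 (square) is the highest of its group for MET and FGFR1 and the lowest for FGF2.

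MET, the receptor tyrosine kinase for HGF, was the most abundant member, with a lower log2 fold change than FGFR1 in both knockdowns. After siMAPK8_9 the values of these genes, -1.55 ± 0.35 and -1.22 ± 0.32, overlapped within their SEs. A difference between the genes was not tested. After siMAPK14 the libraries held 114, 96.1 and 149.6 CPM, against 327, 328 and 328 CPM in the controls. The control libraries were nearly identical, and every knockdown library was far below them, with replicate 3 the highest at 45.7% of their mean. The log2 fold change was -1.44 ± 0.14 (SE, adjusted p = 3.23e-05, edgeR's quasi-likelihood test). Within this group the share of mitochondrial counts ran the other way, at 41.0%, 45.0% and 32.1% in replicates 1 to 3. Its part in the spread was not tested. With the mitochondrial genes left out of the library sizes the log2 fold change was -1.44. TMM scaling trims extreme genes, so that setting could hardly move the value and does not bear on the spread.

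After siMAPK8_9 MET stood at 104, 239.9 and 98.6 CPM, against 434, 429.9 and 439 CPM in its controls. Replicate 2 held 55.2% of the control mean and the other libraries 23.9% and 22.7%, all below the controls. The log2 fold change was -1.55 ± 0.35 (adjusted p = 0.00994) with the 3 libraries and -2.09 ± 0.05 (adjusted p = 1.12e-07, edgeR's quasi-likelihood test) without replicate 2. Beside the epithelial markers, that library's mitochondrial share also differed, and the part of either in its MET level was not tested. The MET locus (chromosome 7, 116672196 to 116798377) overlaps the long non-coding RNA gene COMETT over 15832 bases, and no source used here states the strand, so reads from the overlap could come from either.

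FGFR1, the main FGF receptor of these cells by level, fell less than MET after siMAPK14. It stood at 73.9, 57.8 and 83.9 CPM after siMAPK14, against 114, 109 and 111 CPM in the controls. The groups did not overlap, and replicate 2 was the lowest. The log2 fold change was -0.62 ± 0.12 (adjusted p = 0.00161, edgeR's quasi-likelihood test). After siMAPK8_9 it stood at 31.0, 80.3 and 43.7 CPM against 116, 123 and 126 CPM. Replicate 2 again kept the most, 65.9% of the control mean against 25.4% and 35.8%. The log2 fold change was -1.22 ± 0.32 (adjusted p = 0.0180, edgeR's quasi-likelihood test), and -1.70 ± 0.12 (adjusted p = 1.48e-05) without replicate 2. The call did not hold without siMAPK8_9 replicate 3 (adjusted p = 0.0692) or without control replicate 3 (adjusted p = 0.0527).

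FGFR2, FGFR3 and FGFR4 were near the detection limit in the knockdown libraries, where 3 counts equal 0.141 to 0.487 CPM. FGFR2, whose splice forms answer to different FGFs, had 56, 47 and 48 counts in the siMAPK14 controls and 5, 0 and 12 counts in siMAPK14. In the other experiment it had 203, 217 and 177 counts in the controls and 0, 47 and 8 in siMAPK8_9. All knockdown libraries were below their controls in CPM, a pattern that 35.7% and 36.3% of all tested genes share. The log2 fold changes were -1.58 ± 0.68 (adjusted p = 0.0720) and -1.90 ± 0.72 (adjusted p = 0.0607), not past the threshold by edgeR's quasi-likelihood test. DESeq2 called both lower, with adjusted p = 0.0497 and 0.0201, as did limma-voom, with 0.0353 and 0.0420. Without siMAPK8_9 replicate 2, the log2 fold change of FGFR2 in that experiment was -2.99 ± 0.61 (adjusted p = 0.00351, edgeR's quasi-likelihood test). In all these fits FGFR2 entered the filter through the control libraries, where it is high, so these calls are no support for a fall.

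FGFR3, the FGF receptor best known from cartilage growth, had 27, 34 and 16 counts in the siMAPK14 controls and 2, 2 and 12 in siMAPK14. It had 72, 57 and 57 counts in the siMAPK8_9 controls and 0, 31 and 0 in siMAPK8_9. The single siMAPK8_9 library with counts was replicate 2, at 94.5% of the control mean in CPM. The log2 fold changes were -0.69 ± 0.66 (adjusted p = 0.390) and -1.21 ± 0.95 (adjusted p = 0.315), not past the threshold by edgeR's quasi-likelihood test. Without replicate 2, FGFR3 was lower after siMAPK8_9 (adjusted p = 0.00196, edgeR's quasi-likelihood test), with 0 counts in both remaining libraries. Against a floor of 3 counts per library, these were at least 3.33-fold lower than the controls. FGFR3 entered that fit through the controls alone, where it is high, so its call is no support for a fall. FGFR4, a receptor best known in liver, had 11, 5 and 8 counts and 5, 5 and 5 counts in the control sets, 13, 0 and 8 in siMAPK14, and 11, 21 and 0 in siMAPK8_9. It was outside the filter in both comparisons, and its groups overlapped. With no filter, its log2 fold changes were 1.34 ± 1.01 (adjusted p = 0.306) and 2.71 ± 1.05 (adjusted p = 0.0767) by edgeR's quasi-likelihood test.

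**Figure D2:**
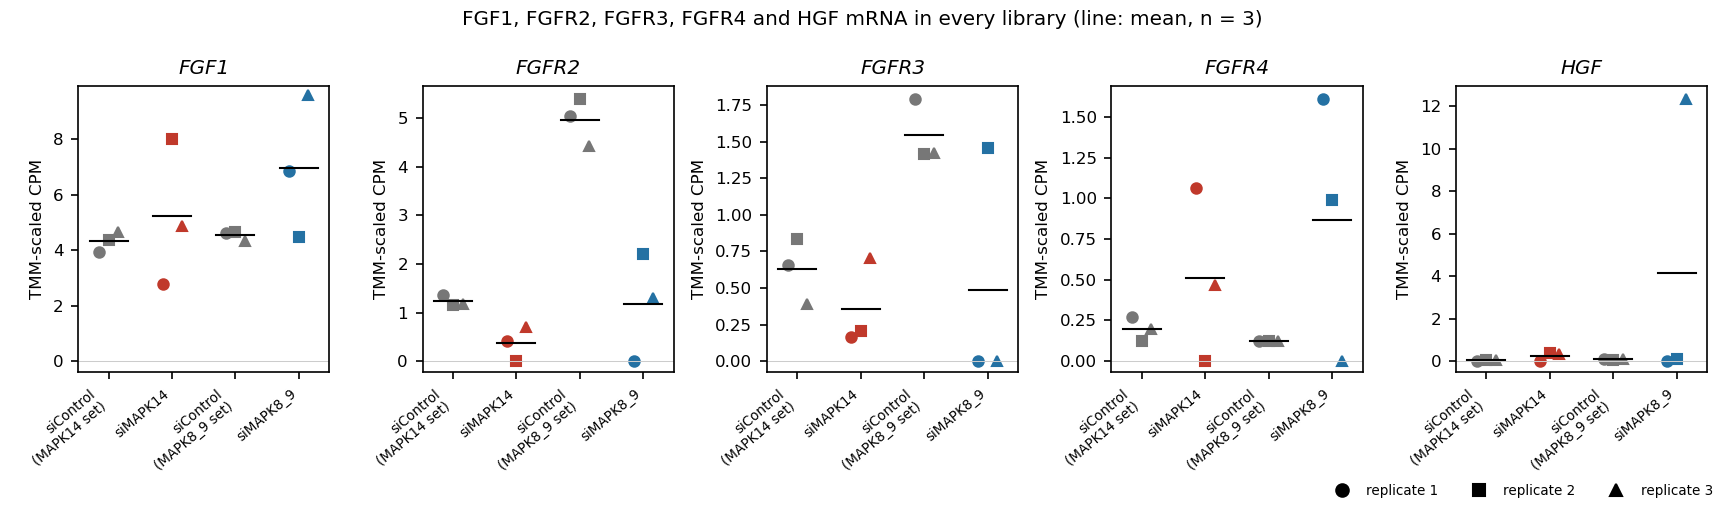
FGF1, FGFR2, FGFR3, FGFR4 and HGF in TMM-scaled CPM (linear axes) in each of 12 libraries, with the group mean as a line (n = 3). FGFR2 and FGFR3 reach 0 in some knockdown libraries, FGF1 and FGFR4 overlap between groups, and HGF is above 1 CPM in siMAPK8_9 replicate 3 alone.

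FGF2, a heparin-binding growth factor without a classical secretion signal, was the most abundant of the ligands. After siMAPK14 the libraries held 27.3, 27.3 and 27.6 CPM, against 45.1, 47.1 and 46.5 CPM in the controls. All 3 were within 59.1% to 59.7% of the control mean, although their MET and FGFR1 levels differed. The log2 fold change was -0.75 ± 0.08 (adjusted p = 3.82e-05, edgeR's quasi-likelihood test). After siMAPK8_9 the levels were 37.3, 23.6 and 39.6 CPM against 67.8, 60.4 and 69.7 CPM. Here replicate 2 was the lowest, at 35.8% of the control mean against 56.6% and 60.1%, opposite to its place for MET and FGFR1. The log2 fold change was -0.99 ± 0.21 (adjusted p = 0.00728), and -0.77 ± 0.09 (adjusted p = 0.000222, edgeR's quasi-likelihood test) without that library. FGF2 (chromosome 4, 122826682 to 122898236) shares 5660 bases with NUDT6, an antisense gene. NUDT6 moved differently, with a log2 fold change of 0.89 (adjusted p = 0.00795) after siMAPK14 and -0.38 (adjusted p = 0.555) after siMAPK8_9 by edgeR's quasi-likelihood test. NUDT6 had 49.58 to 135.44 counts in the siMAPK14 experiment and 5.87 to 114.91 in the other. FGF2 had 269 to 469 counts in the siMAPK14 libraries and 244 to 502 in the siMAPK8_9 libraries. Reads from the shared bases cannot be assigned to a strand.

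FGF5, a secreted FGF known for ending hair growth, changed alike in every library. It stood at 7.45, 7.92 and 8.00 CPM after siMAPK14 against 16.9, 20.6 and 20.2 CPM in the controls. After siMAPK8_9 it stood at 8.05, 9.23 and 8.45 CPM against 17.8, 17.6 and 18.9 CPM. The 6 knockdown libraries spanned 38.7% to 51.0% of their control means, and siMAPK8_9 replicate 2 did not stand apart. The log2 fold changes were -1.30 ± 0.13 (adjusted p = 4.51e-05) and -1.07 ± 0.14 (adjusted p = 0.00160) by edgeR's quasi-likelihood test.

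FGF1, which binds all FGF receptors, was the ligand that was not lower. Its levels were 2.78, 8.03 and 4.88 CPM after siMAPK14 and 3.93, 4.36 and 4.68 CPM in the controls, with knockdown libraries on both sides of the control range. After siMAPK8_9 they were 6.88, 4.47 and 9.59 CPM against 4.63, 4.68 and 4.35 CPM, and only replicate 2 lay within the control range. The log2 fold changes were 0.26 ± 0.33 (adjusted p = 0.531) and 0.59 ± 0.30 (adjusted p = 0.139), not past the threshold by edgeR's quasi-likelihood test. Without siMAPK8_9 replicate 2, FGF1 was higher in that experiment, with a log2 fold change of 0.86 ± 0.19 (adjusted p = 0.00516, edgeR's quasi-likelihood test). FGF1 made 7.96% to 10.8% of the summed ligand level per kilobase in the controls and 12.4% to 28.6% in the knockdowns.

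HGF, the ligand of MET, was nearly absent apart from one library. Counts were 1, 2 and 3, then 5, 3 and 4 in the control sets, 0, 4 and 6 in siMAPK14, and 0, 2 and 76 in siMAPK8_9. The 76 counts, 12.3 CPM, were all in siMAPK8_9 replicate 3. No other gene had at least 50 counts in that library and at most 5 in each of the other 5 libraries of the experiment, whereas 109 genes met this in replicate 2. With no filter the log2 fold change of HGF was 5.19 ± 1.91 (adjusted p = 0.0668, edgeR's quasi-likelihood test), a value that rests on that library.

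None of the 8 members tested for a difference between the 2 knockdown effects passed the threshold (edgeR's quasi-likelihood test; 0 at an unadjusted p under 0.05), against 15.9% of all genes, 6.87% higher and 9.02% lower. The siMAPK14 effect minus the siMAPK8_9 effect was 0.09 ± 0.39 for MET (adjusted p = 0.902), 0.57 ± 0.36 for FGFR1 (adjusted p = 0.298), 0.24 ± 0.22 for FGF2 (adjusted p = 0.501) and -0.24 ± 0.19 for FGF5 (adjusted p = 0.402). For FGFR1 the SE leaves room for a difference as large as its siMAPK14 effect. Without siMAPK8_9 replicate 2 the difference was 1.13 ± 0.19 for FGFR1 (adjusted p = 0.00045) and 0.70 ± 0.17 for MET (adjusted p = 0.00587), the siMAPK8_9 effect being the lower in each, while FGF2 gave 0.07 ± 0.12 and FGF5 -0.12 ± 0.20. FGFR3 also passed without that library, on 0 counts in the other siMAPK8_9 libraries. It entered the filter through the libraries where it is high, so its call is no support for a difference. The batch of each experiment cannot be told apart from the knockdown in this difference.

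The fall of the members shrank once the trend with transcript length was removed from each library. MET kept its calls, at -0.94 ± 0.11 (adjusted p = 0.000227) after siMAPK14 and -0.89 ± 0.27 (adjusted p = 0.0390) after siMAPK8_9, as did FGF5, at -0.86 ± 0.13 (adjusted p = 0.000861) and -0.48 ± 0.13 (adjusted p = 0.0291). FGFR1 was then not past the threshold in either, at -0.24 ± 0.10 (adjusted p = 0.0759) and -0.72 ± 0.26 (adjusted p = 0.0646). FGF2 was at -0.21 ± 0.08 (adjusted p = 0.0488) after siMAPK14 and at -0.20 ± 0.26 (adjusted p = 0.554) after siMAPK8_9, all by edgeR's quasi-likelihood test. With both the trend and siMAPK8_9 replicate 2 left out, a setting chosen after the data were seen, FGFR1 was at -1.09 ± 0.13 (adjusted p = 0.000432), MET at -1.30 ± 0.05 (adjusted p = 1.43e-06) and FGF2 at 0.08 ± 0.10 (adjusted p = 0.508). The FGFR1 difference between the knockdowns then stood at 0.85 ± 0.18 (adjusted p = 0.00249) and that of MET at 0.37 ± 0.14 (adjusted p = 0.0637).

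**Figure D3:**
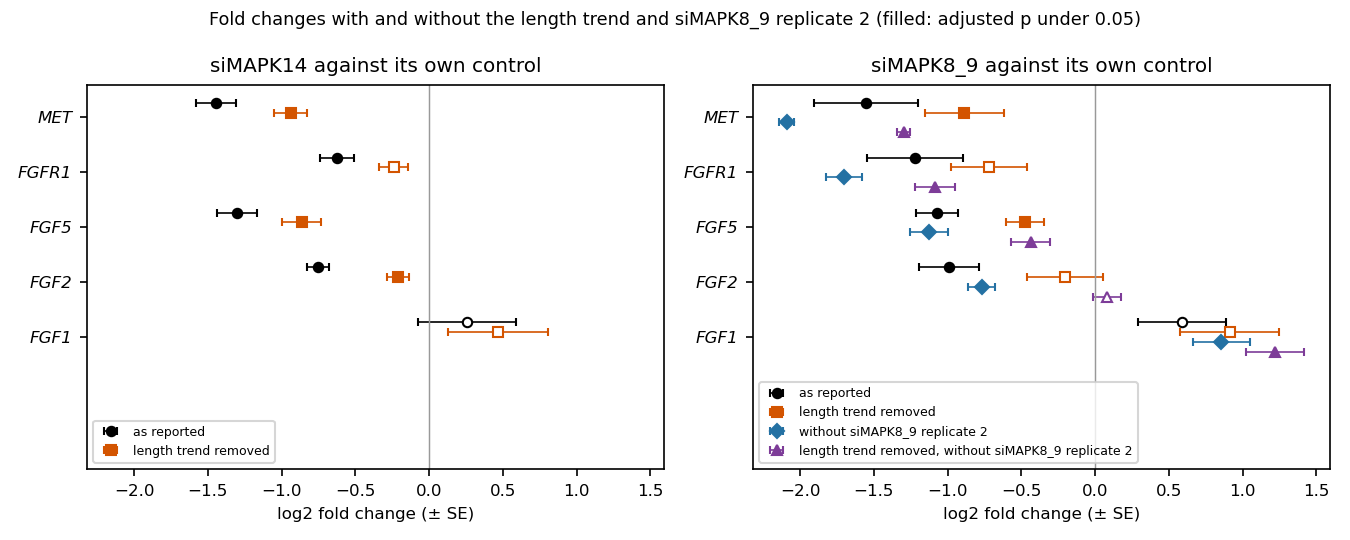
Log2 fold change ± SE for 5 members in each knockdown as reported, with the length trend removed and, for siMAPK8_9, without replicate 2. Filled symbols passed an adjusted p of 0.05; MET and FGF5 stay filled and left of 0 throughout, and FGF2 after siMAPK8_9 moves to 0.

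Co-receptors and heparan sulfate enzymes, which shape how FGFs reach their receptors, were often lower in both knockdowns, and 0 of those tested were higher. Of 12 tested FGF-binding proteins and co-receptors, 10 were lower and 0 higher after siMAPK14 (median log2 fold change -0.997), and 6 were lower and 0 higher after siMAPK8_9 (median -1.25). Over all genes tested, 30.5% were lower and 29.4% higher after siMAPK14, and 26.1% and 26.8% after siMAPK8_9. SDC3, a syndecan, went from 178 ± 14.8 to 31.7 ± 3.28 CPM after siMAPK14 (SD, n = 3; log2 fold change -2.48, adjusted p = 2.66e-06, edgeR's quasi-likelihood test). GPC6, a glypican, fell to 16.4 ± 0.175 CPM from 34.2 ± 1.28 after siMAPK14 and to 17.8 ± 6.67 from 63.1 ± 1.66 after siMAPK8_9. GPC4 fell by 1.66 on the log2 scale after siMAPK8_9 (adjusted p = 0.00250, edgeR's quasi-likelihood test). Of 16 enzymes of heparan sulfate synthesis and editing, 12 and 13 were lower and 0 higher (medians -0.64 and -1.15). NDST1, which starts sulfation of the chain, fell by 1.61 and 2.00 on the log2 scale, SULF1, which removes sulfate outside the cell, by 2.68 after siMAPK14, and GLCE, the epimerase of the chain, by 1.75 after siMAPK8_9 (adjusted p = 1.15e-05, 0.00195, 3.67e-06 and 0.000923, edgeR's quasi-likelihood test). With the length trend removed, 9 of 11 and 4 of 12 co-receptor genes were lower, and 7 and 5 of 16 enzyme genes were lower with 2 and 1 higher. Among all genes, 2866 of 13076 were then lower and 3194 higher after siMAPK14, and 2121 of 12995 lower and 2820 higher after siMAPK8_9. Without siMAPK8_9 replicate 2, 9 of 12 co-receptor genes and 15 of 16 enzyme genes were lower after siMAPK8_9 (medians -1.75 and -1.45), beside 5040 of all 13444 genes.

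Few regulators of HGF activation could be tested. After siMAPK14, 1 of 6 was lower and 0 higher. Of 6 tested after siMAPK8_9, 1 was lower, PLAU, the urokinase protease, at -1.20 (adjusted p = 0.00182), and 1 was higher, F12, coagulation factor XII, at 1.71 (adjusted p = 0.0306, edgeR's quasi-likelihood test), whose libraries overlapped the controls at 7 to 75 counts. F12 was not past the threshold with the length trend removed, nor without siMAPK8_9 replicate 1 or any 1 of the 3 control libraries. Of 7 tested without siMAPK8_9 replicate 2, 4 were lower and 1 higher, beside 5040 lower and 4514 higher of all 13444 genes. Of 9 MET-related receptors and regulators of shedding, 6 were lower and 1 higher after siMAPK14, and 3 were lower and 1 higher after siMAPK8_9. The latter count was 7 lower without siMAPK8_9 replicate 2 and 1 lower without siMAPK8_9 replicate 3 or any 1 control library. Among all genes, 30.5% were lower and 29.4% higher after siMAPK14, and 26.1% and 26.8% after siMAPK8_9. Without siMAPK8_9 replicate 3, 3371 of 13496 were lower, and 2198 to 2253 without a control library. PLXNB2, a plexin, was at -1.49 after siMAPK14 (adjusted p = 1.71e-05) and ADAM17, a sheddase, at -0.89 after siMAPK8_9 (adjusted p = 0.00447, edgeR's quasi-likelihood test). TIMP1, a metalloprotease inhibitor with a short transcript, was higher at 0.79 after siMAPK14 (adjusted p = 5.8e-05) and went from 112 to 295 CPM after siMAPK8_9 (adjusted p = 0.000602), but was at -0.14 after siMAPK14 once the length trend was removed, and then not past the threshold in either. TIMP3, an inhibitor of ADAM17, went from 55.4 ± 5.90 to 12.4 ± 1.75 CPM after siMAPK14 and from 54.3 ± 1.48 to 114 ± 71.9 CPM after siMAPK8_9, the latter not past the threshold (adjusted p = 0.115, edgeR's quasi-likelihood test).

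Inside the cell, of 20 tested adaptors of FGFR and MET, 11 were lower and 3 higher after siMAPK14, and 9 were lower and 1 higher after siMAPK8_9 (medians -0.30 and -0.40). PLCG1, phospholipase C gamma 1, was at -1.41 and -1.49 (adjusted p = 1.08e-05 and 0.00113), SHC1 at -0.74 after siMAPK14 (adjusted p = 1.01e-05) and SOS1, a RAS exchange factor, at -0.93 after siMAPK8_9 (adjusted p = 0.00122, edgeR's quasi-likelihood test). With the length trend removed, 5 adaptors were lower and 5 higher after siMAPK14 and 2 were lower and 5 higher after siMAPK8_9. Without siMAPK8_9 replicate 2, 14 were lower and 1 higher. Of the RAS-ERK cascade, 8 of 17 were lower and 2 higher after siMAPK14, and 6 of 16 were lower and 4 higher after siMAPK8_9, or 9 lower and 4 higher without replicate 2. Beside both lists, 30.5% of all genes were lower and 29.4% higher after siMAPK14, and 26.1% and 26.8% after siMAPK8_9. Without replicate 2, 5040 of 13444 were lower and 4514 higher. No set test was run, so these counts are not read as a result about either list. With the length trend removed, 4 of 16 were lower and 1 higher after siMAPK14, and 3 of 16 were lower and 2 higher after siMAPK8_9. Among all genes, 2866 of 13076 were then lower and 3194 higher after siMAPK14, and 2121 of 12995 lower and 2820 higher after siMAPK8_9. RASA1, a brake on RAS, was at -1.33 after siMAPK14 (adjusted p = 7.34e-06), and NF1, another brake, and the kinase RPS6KA3 were at -0.98 and -0.95 after siMAPK8_9 (adjusted p = 0.0013 and 0.00103). Once the length trend was taken out, NF1 turned to 0.10 (adjusted p = 0.615) and, also without replicate 2, to 0.26 (adjusted p = 0.0210), and RPS6KA3 was not past the threshold after siMAPK8_9. HRAS, a short transcript, was at 0.73 after siMAPK14 (adjusted p = 7.66e-05, edgeR's quasi-likelihood test) and at -0.01 with the length trend removed.

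By count, more targets and feedback genes of ERK signalling were lower than higher after siMAPK14. After siMAPK8_9 more were higher than lower. After siMAPK14, 12 of 20 were lower and 1 higher (median -0.43), and after siMAPK8_9, 2 of 19 were lower and 7 higher (median 0.67), or 4 lower and 7 higher (median 0.26) without siMAPK8_9 replicate 2. Among all genes, 30.5% were lower and 29.4% higher after siMAPK14, and 26.1% and 26.8% after siMAPK8_9. Without replicate 2, 5040 of 13444 were lower and 4514 higher. The 12 lower after siMAPK14 became 7 without control replicate 2 and 8 without control replicate 3 or in the joint fit, with 0 or 1 higher. All-gene counts of lower genes in those fits were 3275, 3314 and 3558, beside 4023. SPRY4, a feedback inhibitor of FGF receptor signalling, was at -1.39 ± 0.15 (adjusted p = 6.37e-05) after siMAPK14 and at 1.22 (adjusted p = 0.0390) after siMAPK8_9 by edgeR's quasi-likelihood test. With the 12 libraries scaled together, SPRY4 spanned 6.326 to 21.34 CPM after siMAPK8_9 and 5.322 to 6.338 CPM in its controls. The lowest of those knockdown libraries thus lay within the control range. SPRED1, another inhibitor, was at -1.18 after siMAPK14 (adjusted p = 7.41e-06), and the ERK phosphatase DUSP4 and the AP-1 subunit FOSL1 were at 1.98 and 0.95 after siMAPK8_9 (adjusted p = 0.000297 and 0.000783, edgeR's quasi-likelihood test). The difference between the knockdown effects passed the threshold for 10 of 20, all 10 below 0 (siMAPK14 effect minus siMAPK8_9 effect), and for 11 of 20 with the length trend removed. Over all genes, 9.02% passed below 0 and 6.87% above, and 2499 of 13429 passed with the trend removed. FOSL1 then turned to -0.39 after siMAPK14 (adjusted p = 0.00199, edgeR's quasi-likelihood test). No set test was run, so these counts are not read as a result about the list.

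**Figure D4:**
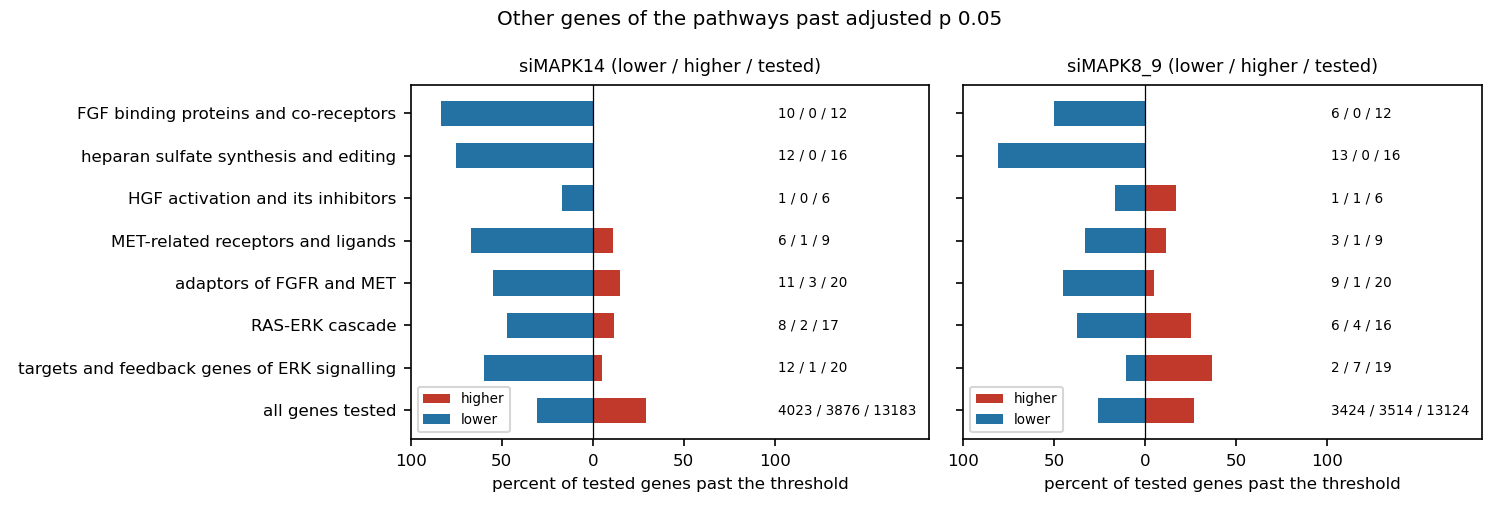
Percent of the tested genes of 7 pathway lists, and of all genes tested, that were lower (left, blue) or higher (right, red) at an adjusted p under 0.05 in each knockdown; the figures at the right of each bar give lower, higher and tested genes. Co-receptor and heparan sulfate genes have no red bar in either, and ERK targets are more blue than red after siMAPK14 and more red than blue after siMAPK8_9.

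The control sets themselves differed in some of these genes, and not all in the same direction. With all 12 libraries scaled together, ETV5, a transcription factor induced by FGF, was at 119 ± 1.36 CPM in the siMAPK14 controls and 48.1 ± 1.90 in the siMAPK8_9 controls, but at 75.1 ± 6.89 after siMAPK14 and 77.4 ± 2.00 after siMAPK8_9 (SD, n = 3). DUSP6, an ERK phosphatase, was at 50.9 ± 7.15 and 13.2 ± 0.157 CPM in the controls and at 35.4 ± 6.89 and 50.4 ± 26.1 after the knockdowns. SPRY4 was at 30.3 ± 2.02 and 5.95 ± 0.546 CPM in the controls and at 11.1 ± 2.34 and 13.4 ± 7.55 after the knockdowns. For ETV5, DUSP6 and SPRY4 the control sets did not overlap, while the knockdown groups had closer means. Other genes of the list were higher in the siMAPK8_9 controls. CCND1 was at 319.5 ± 24.5 CPM in the siMAPK14 controls and 393.6 ± 18.1 in the siMAPK8_9 controls. DUSP7 was at 30.1 ± 1.72 and 39.3 ± 1.88 CPM, and SPRY3 at 1.69 ± 0.0663 and 3.96 ± 0.0541 CPM. ETV5 and DUSP6 are outside the rule for named genes and were chosen after their values were seen. Batch and control set cannot be told apart.

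**Figure D5:**
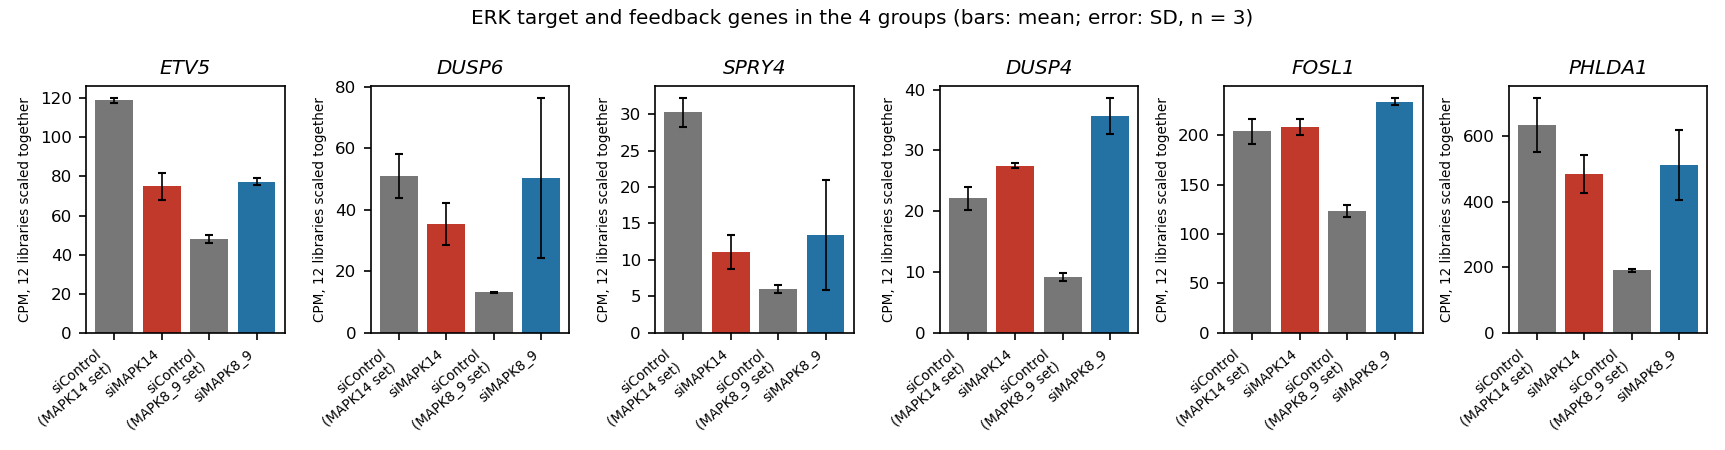
Mean level with SD (n = 3) of 6 ERK target and feedback genes in the 4 groups, in CPM with the 12 libraries scaled together. In each gene the siControl bar of the MAPK14 set is above that of the MAPK8_9 set, while the siMAPK14 and siMAPK8_9 bars lie closer to each other than the control bars do.

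Other FGF genes were few. Of 15 further secreted FGFs 2 could be tested. FGF18 had 3 to 8 counts per control library, 7, 16 and 41 after siMAPK14 and 9, 8 and 17 after siMAPK8_9. It entered the filter through the knockdown libraries alone, where it is high, so its place as the 1 higher gene of this list in each knockdown is not support for a change. FGF7, the keratinocyte growth factor, did not pass, and its 28.3 CPM in siMAPK8_9 replicate 2 was the highest of the 12 libraries. Of the intracellular FGF homologous factors, which act on ion channels and not on receptors, FGF13 was at 0.37 ± 0.10 after siMAPK14 (adjusted p = 0.0111) and at -0.49 (adjusted p = 0.0691) after siMAPK8_9. With the length trend removed, the latter turned to 0.81 (adjusted p = 0.0330), and also without replicate 2 to 0.96 (adjusted p = 0.00496, edgeR's quasi-likelihood test). That list counted 1 higher of 3 tested after siMAPK14 and 0 past the threshold of 4 after siMAPK8_9. Beside it and the list of secreted FGFs, 30.5% of all genes were lower and 29.4% higher after siMAPK14, and 26.1% and 26.8% after siMAPK8_9. Neither list count is read as a result.

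Among 9144 other genes with a mean of at least 10 CPM, those whose profile over the 12 libraries lay closest to each lowered member were found by the root mean square distance of log2(CPM + 0.5) relative to the control mean. MET lay closest to PRSS23 (0.09) and RRBP1 (0.10), FGFR1 to PCNX3 (0.08) and RUNX1 (0.09), FGF5 to ZC3HAV1 (0.10) and ZNFX1 (0.10), and FGF2 to WNK1 (0.12) and FOXO1 (0.13). PRSS23 fell by 1.34 and 1.51 on the log2 scale in the 2 knockdowns and WNK1 by 0.76 and 0.94. These distances are a description over libraries that share their scaling and the length trend.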

How the data were processed

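Messenger RNA of 12 libraries was measured in 2 experiments. Per the labels' protocols, TRIzol RNA was selected by its poly(A) tail and reverse-transcribed from random primers. Per the submitters' processing notes, RSEM 1.3.1, Bowtie2 2.3.4.3, DESeq2 1.4.5 and the build GRCh38.p14 were used, in roles not given. Annotation, filters and strand are not given in the sources used here. The authors deposited expected counts per gene, not normalized, which were rounded here, and FPKM values, used here only to derive effective transcript lengths as count over FPKM for 14034 genes (minimum count 10, minimum FPKM 0.2). The tables hold 24 other columns of per-library values, left out here. Single-cell data of the series were not analysed here.

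Counts were fitted in R 4.3.3 with edgeR 4.0.16 (filterByExpr with minimum count 10 and minimum total 15, TMM scaling, robust quasi-likelihood F-test), each knockdown against its own control, and the difference of effects over all 12 libraries. P-values were adjusted over all genes tested by Benjamini and Hochberg, and 0.05 was the threshold. Levels are CPM after TMM scaling, where 1 count was 0.0244 to 0.163 CPM. The number of counts, with 3 as the floor for a count of 0, limits precision, and floors cover counting error only. Replicate libraries differed beyond counting noise (chi-square per gene 2.16 to 363.9). Deviations of same-numbered control and knockdown libraries correlated at -0.025 to 0.04, so the numbers were not taken to pair libraries.

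Alternatives were RLE, upper-quartile and total-count scaling, other filters, DESeq2 1.42.0, limma-voom (limma 3.58.1), the replicate number as a block, a joint fit, leaving out each library, leaving out 13 mitochondrial genes, and removal of a lowess trend (span 0.3) on effective length. Named genes were all 9 members, the 2 with the smallest adjusted p past the threshold per pathway list and knockdown, the 2 nearest genes per lowered member, and the targeted genes; 1 gene that this rule names is not reported here. The members and lists were chosen with earlier results of these data known. The fits were tested on simulated data. Figures used Python 3.11.15 and matplotlib 3.10.9.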

Additional observations from a re-analysis of the deposited data

Results flagged for a closer look

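For 10 named genes the 2 knockdown effects differed in a direct test, edgeR's quasi-likelihood test of the siMAPK14 effect minus the siMAPK8_9 effect over 12 libraries, with Benjamini-Hochberg adjustment over all genes. The difference was below 0, the effect of siMAPK14 being the lower, for TIMP3 (-3.24 ± 0.57, adjusted p = 0.0027), SPRY4 (-2.66 ± 0.44, adjusted p = 0.00186), DUSP4 (-1.65 ± 0.16, adjusted p = 5.44e-05), SHC1 (-0.96 ± 0.16, adjusted p = 0.00182), FOSL1 (-0.90 ± 0.12, adjusted p = 0.000405) and TIMP1 (-0.61 ± 0.16, adjusted p = 0.0205). It was above 0 for GLCE (0.92 ± 0.28, adjusted p = 0.0437), FGF13 (0.86 ± 0.22, adjusted p = 0.0186), PLAU (0.85 ± 0.25, adjusted p = 0.0396) and RPS6KA3 (0.57 ± 0.13, adjusted p = 0.0103). A difference of effects is not one of levels. With the 12 libraries scaled together, PLAU was at 97.2 CPM after siMAPK14 and 98.3 CPM after siMAPK8_9, and at 125.6 and 228.8 CPM in their controls. FGF13 and TIMP1 were not past the threshold with the length trend removed. None of the 8 members tested passed. Over all genes, 6.87% passed above 0 and 9.02% below. The pathway genes were named for a small adjusted p in a knockdown of these same libraries, which favours a difference between the knockdowns. Their number here is therefore no support for one. Groups of 3 libraries are too small for a test of single outlying libraries.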

How the results depend on the processing

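The fall of MET and FGF5 kept its direction and its side of the threshold in both knockdowns under every alternative run (17 for siMAPK14, 18 for siMAPK8_9). MET ranged from -2.19 to -0.94 and from -2.09 to -0.89, and FGF5 from -2.07 to -0.86 and from -1.72 to -0.44. Total-count scaling moved the median of all genes to -0.79 after siMAPK14, -0.71 after siMAPK8_9 and -0.12 for the difference, so values under it are read against those shifts. Precision for FGFR2, FGFR3, FGFR4 and HGF is limited by counts of 0 to 76 in the knockdown libraries.

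Counts of genes past the threshold were 7899, 6938 and 2169. Leaving out single libraries gave 6410 to 8612, 4509 to 9554 and 1266 to 5205, with 4509, 4560 and 4545 when a siMAPK8_9 control was left out, 1266 to 1371 for the difference without any 1 control, and 5205 without siMAPK8_9 replicate 2. The difference count was 1028 with total counts and 4653 without the length trend and siMAPK8_9 replicate 2. Lower members ranged over 4 to 5 and 3 to 6, and higher members over 0 to 1, 0 to 1 and, for the difference, 0 to 3 when single libraries were left out; 2 members were lower after siMAPK8_9 with the length trend removed. With the length trend and siMAPK8_9 replicate 2 removed, 1 member was higher after siMAPK8_9 and 2 in the difference. The joint fit counted 1 higher member after siMAPK8_9, FGFR4 (2.77, adjusted p = 0.0307). FGFR4 also passed without siMAPK14 replicate 2 and without siMAPK8_9 replicate 3. In these settings it entered the filter through knockdown libraries of 8 to 21 counts, where it is high, and in the last 2 its library at 0 was the one left out, so these calls are no support for a change. The lower members added when single libraries were left out were FGFR2 and, without siMAPK8_9 replicate 2, FGFR3, both near the floor in the knockdowns.

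The replicate numbers did not pair the libraries. With the replicate block, 7474, 6058 and 1179 genes passed, 4, 5 and 0 members were lower, the added one being FGFR2 after siMAPK8_9 (adjusted p = 0.0448), and no other member call changed. That FGFR2 call rests on filter entry through the controls, where it is high, and is no support for a fall.

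Signs changed in these cases. For FGF1, the value was -0.53 after siMAPK14 and -0.15 after siMAPK8_9 with total counts, and -0.16 to 0.534 after siMAPK14 when single libraries were left out, lowest without replicate 2. For FGF2 without the length trend and siMAPK8_9 replicate 2, it was 0.078 after siMAPK8_9 and -0.28 in the difference. For the MET difference, it was -0.10 with total counts, -0.058 with the length trend removed, and between -0.13 and 0.703 when single libraries were left out, below 0 without siMAPK14 replicate 3 (-0.10), siMAPK8_9 replicate 1 (-0.11) or siMAPK8_9 replicate 3 (-0.13). The differences of FGFR2 and FGFR3 were -0.56 and -0.55 without siMAPK14 replicate 3, and that of FGFR2 was -0.15 without siMAPK8_9 replicate 1. At the other end they were 1.496 and 7.662 without siMAPK8_9 replicate 2, the latter fitted against 0 counts and no bound. After siMAPK14 with total counts, FGF13 was at -0.40, HRAS at -0.049, DUSP4 at -0.43 and FOSL1 at -0.71, and with the length trend removed, HRAS was at -0.013, TIMP1 at -0.14, RPS6KA3 at 0.16 and FOSL1 at -0.39. After siMAPK8_9, SHC1 was at -0.42 with total counts, and NF1 at 0.10 and FGF13 at 0.81 with the length trend removed. Leaving out replicate 2 as well gave TIMP1 at -0.036, NF1 at 0.26 and FGF13 at 0.96. The cause was not tested.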

Other observations

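FGF7 stood at 28.3 CPM in siMAPK8_9 replicate 2 and at 12.6 and 6.17 CPM in the others of its group. Markers of fibroblasts, 10 of 10 listed, summed to 10700 to 12900 CPM in the controls, 2817 to 3404 CPM after siMAPK14 and 3422 to 6620 CPM after siMAPK8_9, with replicate 2 the highest. Müller glia markers summed to 5455 to 5783 CPM in the controls, 6075 to 6962 CPM after siMAPK14 and 7790 to 11820 CPM after siMAPK8_9. Single genes did not all go with the sums. Of 13 tested Müller glia markers, 6 were lower and 4 higher after siMAPK14, and 2 lower and 4 higher after siMAPK8_9. Of 10 fibroblast markers, 9 were lower and 0 higher, then 3 lower and 2 higher. Over all genes, 30.5% were lower and 29.4% higher after siMAPK14, and 26.1% and 26.8% after siMAPK8_9. The part of these markers in the member values was not tested.

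The ratio of MET to FGFR1, per kilobase, was 2.21 to 2.32 in the siMAPK14 controls and 1.19 to 1.37 after siMAPK14. It was 2.68 to 2.87 in the siMAPK8_9 controls and 1.74 to 2.57 after siMAPK8_9. The groups did not overlap in either experiment, which was not tested.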
